A study of Mus musculus with 12 samples.

Results

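The comparison described here set epididymal fat of Siah2 knockout mice against that of wild type mice, both fed a diet with 10% fat. Its members are the 6 arrays whose titles give that diet, 3 per genotype, of 12 arrays in the whole series. The animals were male C57BL/6J mice, weaned at 4 weeks onto their diet and studied at 20 weeks of age. The knockout was global, so every cell of the body carried it. Each genotype on this diet held 10 animals, whose RNA was combined in equal amounts into 3 pools of 3 or 4 animals, and each pool was 1 array. A pool averages its animals, so an error below is a spread between pools, shared over all 4 groups of the series, and not between mice. The other 6 arrays held the same genotypes on a diet with 45% fat, with 10 wild type and 8 knockout animals. They entered the statistical model to estimate the spread, and they serve as a second comparison of the genotypes.

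Siah2 encodes a RING-type ubiquitin ligase, an enzyme that attaches ubiquitin to other proteins and so marks them for breakdown by the proteasome. Its known substrates include the prolyl hydroxylases that control the hypoxia response, and in cultured fat cells it has been linked to the turnover of the nuclear receptor PPAR gamma. Epididymal fat consists of lipid-filled adipocytes with macrophages, vessels, fibroblasts and a mesothelial surface. The fat pad is attached to the epididymis and lies close to the seminal vesicles, whose secretory cells make a few proteins in very large amounts.

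All values below are intensities of an Illumina bead array as normalized by the authors, in arbitrary units, and each value in a series of 3 belongs to replicates 1, 2 and 3 in that order. Log2 differences are knockout minus wild type on the scale log2(intensity + 50), with standard errors from limma and p-values adjusted by Benjamini and Hochberg over the 15765 probes kept. The added 50 compresses the differences of dim genes. A probe is called when its adjusted p is under 0.05. Folds are ratios of geometric means of the intensities themselves, n = 3 pools per group. An intensity of 27.9 served as an approximate floor, and against a group whose arrays all lay below it a fold is given as "at least". A gene is represented by its brightest kept probe unless another is named. For 21 called genes picked by the naming rule the array held 29 further kept probes, of which 11 were called. Between 13389 and 15037 probes were detected per array. The fat cell hormone gene Adipoq had mean intensities of 26447 in wild type and 33758 in knockout, and the lipase gene Lpl 39734 and 32766, near the brightest of the array, so the labelled tissue was present in both groups. Correlations across probes, which are not independent replicates, were 0.968 to 0.983 among the wild type arrays and 0.946 to 0.983 among those labelled knockout.

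The Siah2 probe did not separate the genotypes on low fat. It read 102.1, 121.1 and 91.6 on the wild type arrays and 101.9, 62.2 and 63.4 on the arrays labelled knockout. The array labelled knockout replicate 1 thus lay within the wild type range, and the other two lay below it. The log2 difference was -0.31 (SE 0.15, adjusted p = 0.213), and the exact two-sided permutation p was 0.2, where 0.1 is the smallest that 3 arrays against 3 allow. Without the array labelled knockout replicate 1 the difference was -0.45 (adjusted p = 0.0667). On high fat the probe read 111.3, 78.6 and 89.0 in wild type and 55.3, 68.2 and 45.0 in knockout, without overlap. That log2 difference was -0.43 (SE 0.15, limma adjusted p = 0.35). The sources used here do not say which part of the gene was deleted or whether the probe lies in it. Across all probes the low fat array labelled knockout replicate 1 correlated most closely with the array labelled knockout replicate 3 (0.983), then with wild type replicates 3 (0.976) and 2 (0.967). The array labelled knockout replicate 2 stood apart, at 0.913 to 0.918 with the wild type arrays and 0.946 and 0.965 with its own group. Every direction below rests on the labels. Of the 86 called genes picked by the naming rule, 13 were not called without the array labelled knockout replicate 1: Kitl, Zbtb7a, Krt23, Lcn2, Atp12a, Slc2a4, Nampt, Fasn, Insig1, Esr1, Dnajc3, Rplp0 and Myl1. The paralogs Siah1a and Siah1b, which encode closely related ligases, had log2 differences of -0.19 (SE 0.13) and -0.09 (SE 0.13), and neither was called.

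Across all probes, 1028 of 15765 (6.52%) were called, 652 (4.14%) higher and 376 (2.39%) lower in the samples labelled knockout. They belonged to 832 genes, of which 500 were higher and 332 lower. The 2 directions differed in size. The probes called higher had a median log2 difference of 0.72 and a largest of 1.80, and 97 of them exceeded 1. The probes called lower had a median of -0.82 and reached -7.20, and 141 fell by more than 1 and 42 by more than 3. The median over all probes was 0.05. The groups did not overlap for 5098 probes (32.3%), of which 3106 (19.7%) were higher and 1992 (12.6%) lower, and 1024 of the called probes were among them.

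The number called depended on single arrays. It was 1775 without the array labelled knockout replicate 1, with 1143 higher and 632 lower, and 896 of these were among the 1028. It was 40 without the array labelled knockout replicate 2, 69 without knockout replicate 3, 31 without wild type replicate 2, 213 without wild type replicate 1 and 492 without wild type replicate 3. A fit on the 6 low fat arrays alone called 7. Of the 86 called genes picked by rule, 70 were not called without the array labelled knockout replicate 2, 62 without knockout replicate 3, 69 without wild type replicate 2, 49 without wild type replicate 1 and 35 without wild type replicate 3. The 16 called whichever low fat array was left out included Svs1, Svs3a, Svs3b, Svs4, Svs5, Svs6, Sva, EG546038 and OTTMUSG00000015859 among tract genes, Orm2, Ppbp, Fgf13, Nr3c1 and Mod1 among those that rose, and Serpinf2 among those that fell. Of the 7 lists of fat cell, secreted, droplet, synthesis, oxidation, insulin and nuclear receptor genes described below, none had more than 1 gene called without wild type replicate 2 or without the array labelled knockout replicate 2 or 3. After a cyclic loess normalization, which lowered the median of all probes to -0.02, the split turned from mostly higher to mostly lower, with 364 higher and 514 lower.

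**Figure D1:**
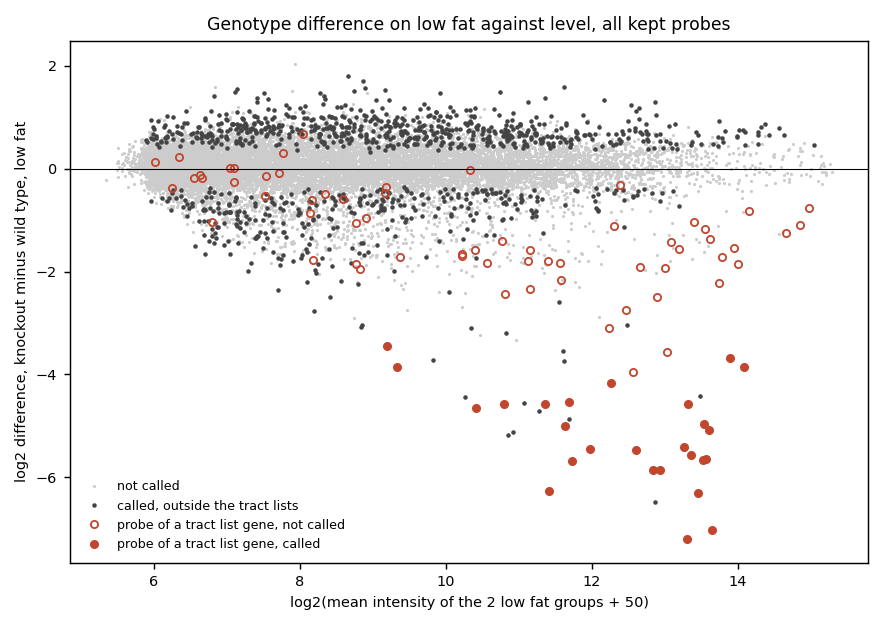
Each point is a probe, placed by the log2 of its mean intensity in the 2 low fat groups plus 50 (horizontal) and by its log2 difference between knockout and wild type on low fat (vertical). Called probes outside the reproductive tract lists are dark, and probes of tract genes are red, filled where called. The 26 called tract probes lie between -3.45 and -7.20, while no probe called higher exceeds 1.80.

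The largest differences belonged to transcripts of the male reproductive tract, whose lists held 26 of the 42 probes that fell by more than 3. This count covers listed genes only. Genes on none of these tract lists, described below, also fell by more than 3. They include Defb25 (-4.86), Ly6g5c (-4.55), Ly6g5b (-4.45), Slc38a5 (-4.42), Ovch2 (-3.72), Tspan8 (-3.09), Krt23 (-3.07), Dnase2b (-3.04) and Lcn2 (-3.03). Their tissue of origin was not tested. Of 75 measured genes on the lists for epididymis, seminal vesicle, prostate and testis, 23 fell, none rose and 52 were not called. The 26 probes were all of the called probes of these genes. Over all probes, 2.39% were called lower and 4.14% higher. In wild type fat on low fat, 30 of the 75 genes had mean intensities of 10000 or more, near the brightest values of the array.

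Of 10 seminal vesicle genes 9 fell (90%, against 2.39% of all probes called lower). The remaining gene, Ceacam10, had a difference of -3.95 (adjusted p = 0.0690). Most of the 10 encode secretory proteins of seminal fluid, several of which form the copulatory plug. Svs4 read 32701, 33050 and 19120 on the wild type arrays and 1979, 2371 and 1926 on those labelled knockout, a 13.2-fold lower level (log2 difference -3.69, SE 0.21, adjusted p = 1.55e-05). Svs5 read 39783, 38491 and 19291 against 2000, 2521 and 1774, 14.9-fold lower. Svs3b read 36160, 30230 and 5106 against 275.0, 392.5 and 259.7, 58.4-fold lower (log2 difference -5.65, SE 0.56, adjusted p = 0.00153). In each of these genes wild type replicate 3 was the lowest of the wild type arrays, and the 3 arrays labelled knockout lay close together. Svs1, Svs3a, Svs6 and Sva also fell, with log2 differences of -4.97, -5.87, -5.47 and -5.86. The mean log2 value over the 10 genes was 14.63, 14.73 and 12.07 on the wild type arrays and 8.93, 8.77 and 8.78 on those labelled knockout. Its SD was 1.51 in wild type and 0.09 in knockout on low fat, and 0.1 and 0.36 on high fat. The standard errors share 1 spread over the 4 groups, so they can understate the spread of such genes between wild type pools. In wild type fat on high fat the same genes were near or below the floor, with a mean of 18.1 for Svs4 and -7.4 for Svs3b.

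The genes Svs1, Svs3b, Svs4 and Svs5 also differed between the diets in their genotype difference, as given further below, and their upstream regions are shown for that reason. The sequences are the 250 bases before each RefSeq transcript start in GRCm38.p6, read 5′ to 3′ on the gene's strand, with every TATAAA in capitals.
Svs1: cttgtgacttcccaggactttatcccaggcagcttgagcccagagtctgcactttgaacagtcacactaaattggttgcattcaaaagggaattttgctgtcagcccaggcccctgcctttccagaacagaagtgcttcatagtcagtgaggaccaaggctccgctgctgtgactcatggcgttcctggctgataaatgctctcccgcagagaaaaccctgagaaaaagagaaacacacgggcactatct
Svs3b: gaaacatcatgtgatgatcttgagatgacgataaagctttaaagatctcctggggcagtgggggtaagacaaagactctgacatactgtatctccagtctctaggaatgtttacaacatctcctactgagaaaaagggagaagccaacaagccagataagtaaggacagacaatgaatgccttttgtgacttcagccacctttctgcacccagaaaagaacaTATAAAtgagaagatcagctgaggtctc
Svs4: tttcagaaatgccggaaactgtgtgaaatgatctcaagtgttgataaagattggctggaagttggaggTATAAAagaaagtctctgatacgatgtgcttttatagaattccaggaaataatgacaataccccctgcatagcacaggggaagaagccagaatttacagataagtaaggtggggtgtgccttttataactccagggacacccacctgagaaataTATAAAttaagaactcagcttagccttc
Svs5: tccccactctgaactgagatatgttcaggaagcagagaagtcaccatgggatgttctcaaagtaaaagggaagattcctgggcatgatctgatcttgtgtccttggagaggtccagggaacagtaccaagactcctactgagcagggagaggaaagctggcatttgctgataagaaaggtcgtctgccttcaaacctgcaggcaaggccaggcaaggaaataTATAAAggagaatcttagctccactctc
They lie at chr6:48986611-48986860 on the plus strand for Svs1, and for the others at chr2:164256644-164256893 and chr2:164278308-164278557 on the minus strand and chr2:164332515-164332764 on the plus strand. Of 9 seminal vesicle genes with a RefSeq window, 6 lie on chromosome 2. In Svs3b, Svs4 and Svs5 a TATAAA begins 28 bases before the start. Among the 9 windows, 5 (55.6%) hold TATAAA on the gene's strand beginning 20 to 40 bases before the start, against 2.22% of the windows of 27025 genes. On either strand and anywhere in the window, the counts are 6 of 9 (66.7%) and 13% of all. A second motif, AGAACA, was also counted on either strand, in 7 of the 9 windows (77.8%) and 16.2% of all. Svs3b, Svs4 and Svs5 lie near one another on chromosome 2, so the windows need not be independent. TATAAA was chosen after the sequences had been seen, and a match of either motif is a description of letters only.

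Of the 45 epididymal genes measured, 1 had a difference above 0, and the list median was -1.85. The call threshold divided them into genes that fell and genes that were not called. Some of the latter stayed bright on some arrays labelled knockout. Of the 45, 13 fell (28.9%, against 2.39% of all probes called lower), and their median group mean went from 6177 in wild type to 112.3. The fallers included EG546038 (now Spag11b), an epididymal antimicrobial peptide gene, which read 37111, 26375 and 12518 against 82.2, 116.4 and 201.0, 185-fold lower (log2 difference -7.03, SE 0.45, adjusted p = 2.58e-05). OTTMUSG00000015859 (now Defb45), a defensin, read 9757, 3771 and 2492 against 9.7, 9.2 and 10.0, at least 162-fold lower. It was detected on 3 arrays, the fewest the filter allowed, and exceeded the floor only in wild type fat on low fat, so a probe kept in this way could only fall. Of the 23 tract genes that fell, 4 were detected on 3 arrays. Gpx5, a glutathione peroxidase secreted by the epididymis, read 29197, 18885 and 11562 against 55.6, 155.4 and 2711, 64.8-fold lower (adjusted p = 0.0169). The groups did not overlap in EG546038, OTTMUSG00000015859 or Gpx5, but in Gpx5 the array labelled knockout replicate 3 stood far above the other two.

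The 32 epididymal genes that were not called had a median group mean of 8932 in wild type and 2985 in knockout. Their knockout means ranged from 27.4 to 27490, and the 2 genes that follow are among the bright ones. Spink8, a protease inhibitor gene, read 31507, 39783 and 39268 against 38856, 7104 and 36511. Spint4 read 34447, 35882 and 35558 against 38164, 3898 and 29460. In both genes the array labelled knockout replicate 2 was low, and the other two reached wild type levels or nearly so. Of the 45 genes, 40, 38 and 31 exceeded an intensity of 1000 on the wild type arrays and 25, 9 and 27 on those labelled knockout. On high fat the count was 0 or 1 on 5 arrays and 22 on knockout replicate 2.

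Among the other tract transcripts 1 more gene fell. Spink3, a protease inhibitor of the seminal vesicle and prostate, was 60.1-fold lower, from 32238, 33920 and 3210 to 239.3, 273.3 and 247.0. None of 19 spermatid and testis genes was called. Prm1, a protamine of sperm chromatin, read 3367, 4841 and 5757 against 4995, 784.0 and 12080, and the groups overlapped. Of 15 epithelial genes 1 was called (6.67%, against 2.39% of all probes called lower), Spint2, which fell by 1.31. All 15 differences were negative, however, and their median was -1.55. A second Spint2 probe was not called, at -0.89 (adjusted p = 0.0657). Skeletal muscle genes had a mean log2 value of 9.17 on the array labelled knockout replicate 1, against 7.09 and 7.18 on the other two and 7.23 to 8.42 in wild type. Smooth muscle genes showed the same array high among those labelled knockout, at 11.11 against 9.04 and 10.08.

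**Figure D2:**
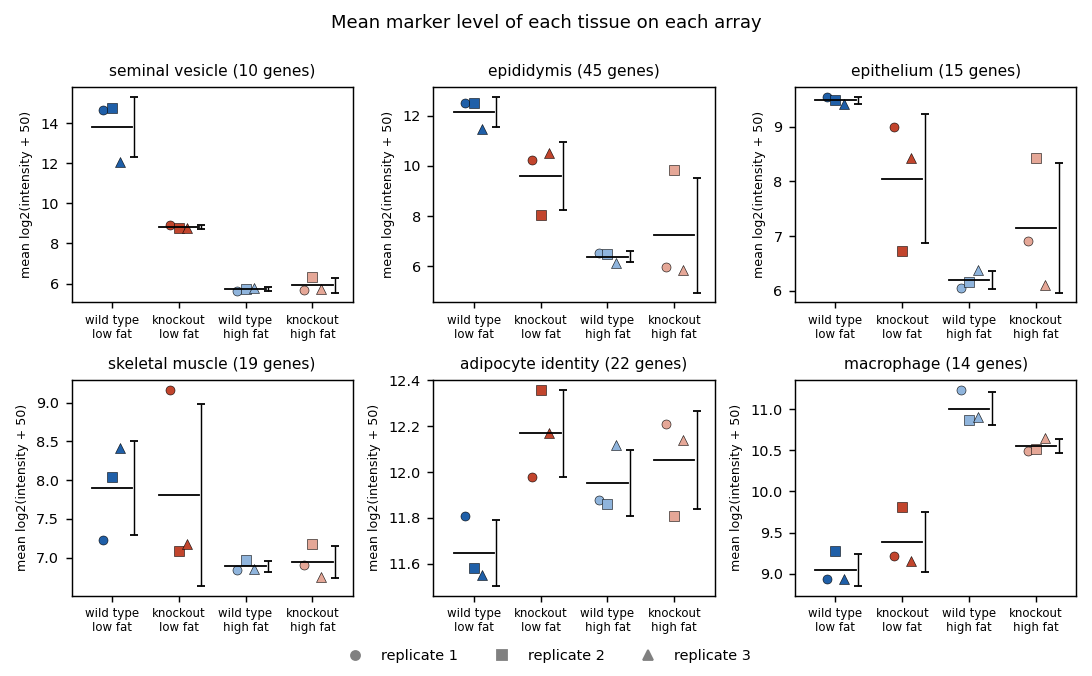
Each panel shows the mean log2(intensity + 50) over the genes of 1 list on each of the 12 arrays, with the group mean as a line and the SD beside it (n = 3 pools). Seminal vesicle levels separate the low fat groups, epididymal and epithelial levels vary most among the arrays labelled knockout, and skeletal muscle is highest, at 9.17, on the array labelled knockout replicate 1.

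The tract genes of the 4 lists held 6.06%, 6.07% and 3.39% of the summed intensity of gene probes on the wild type arrays and 2.35%, 0.278% and 2.07% on those labelled knockout. The array with the smallest share, labelled knockout replicate 2, also had the highest mean of the 22 adipocyte identity genes, 12.36, against 11.98 and 12.17 on its group's other arrays and 11.55 to 11.81 in wild type. Among the wild type arrays the order was not the same, since replicate 3, with the smallest share, had the lowest adipocyte mean, 11.55, and replicate 1 the highest, 11.81. The mean log2 value of the 45 epididymal genes itself separated the low fat groups. It was 12.52, 12.51 and 11.48 on the wild type arrays and 10.23, 8.04 and 10.52 on those labelled knockout, and it includes 13 genes called lower. When it was added to the model as a covariate, 7 probes were called (0.0444%), all lower and all among the 1028. Such a covariate takes up part of the genotype difference, so fewer calls were partly built into the fit. The median SE of the called probes rose from 0.16 to 0.2. Of the list genes, 6 were called in that fit, 4 of the seminal vesicle and 2 of the epididymis, and no gene of another list. The differences of all 652 probes called higher and all 376 called lower kept their sign, with median ratios to the original of 0.821 and 0.781. In bulk RNA of this kind, fewer cells of a type and less RNA per cell cannot be told apart.

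Fat cell genes that were called were higher in the samples labelled knockout. Of 22 measured adipocyte identity genes, 7 rose (31.8%, against 4.14% of all probes called higher) and none fell (against 2.39% called lower), with a median log2 difference of 0.62 against 0.05 over all probes. Slc2a4, the insulin-responsive glucose transporter GLUT4, read 375.8, 201.9 and 251.1 in wild type and 715.8, 664.3 and 557.1 in knockout, a 2.40-fold rise (log2 difference 1.12, SE 0.26, adjusted p = 0.0374). Acsl1, which activates long-chain fatty acids, rose 1.83-fold and Agpat2, an enzyme of triglyceride synthesis, 1.85-fold. Aqp7, the glycerol channel of fat cells, read 1228, 1081 and 1127 against 1438, 2530 and 1989, and the array labelled knockout replicate 1 lay nearest to wild type. The other Aqp7 probes, at 0.75, 0.83 and 1.04, were not called. Car3, Dgat2 and Lep also rose. The defining genes Adipoq (0.35), Fabp4 (0.05), Cfd (-0.23) and Lpl (-0.29) were not called. The brightest probe of Pparg, the nuclear receptor that directs fat cell formation, gave 0.37 (adjusted p = 0.243). With the epididymal covariate their median was 0.28, and without wild type replicate 3 none of the 22 was called. Of the 652 probes called higher, 449 exceeded the adipocyte median of 0.62. Calling selects large differences, so this count does not set those probes apart from fat cell genes.

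Among 17 secreted factors 4 rose (23.5%, against 4.14% of all probes called higher) and none fell (against 2.39% called lower). Rbp4, a retinol carrier made by liver and fat, read 4255, 3023 and 3177 against 7817, 8709 and 8215, and the groups were far apart (2.39-fold, log2 difference 1.25, SE 0.24, adjusted p = 0.0252). Lep, the satiety hormone leptin, read 15212, 14362 and 14362 against 17148, 31898 and 25800 (1.65-fold, adjusted p = 0.0432). Rarres2, the gene of chemerin, rose 1.67-fold and Nampt, an enzyme of NAD synthesis, 1.51-fold.

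Of 15 genes of the lipid droplet and lipolysis, 4 rose (26.7%, against 4.14% of all probes) and none fell (against 2.39%). The list median was 0.61. Cidec, which enlarges lipid droplets, read 15925, 13088 and 14737 against 21412, 29197 and 27331 (1.77-fold, adjusted p = 0.0184). Pnpla2, the first lipase of triglyceride breakdown, rose 1.73-fold. Its activator Abhd5 read 1258, 1324 and 1349 against 1864, 2522 and 2098, 1.64-fold higher. S3-12 (now Plin4), a droplet coat protein, rose 1.39-fold.

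Fatty acid synthesis and oxidation genes both contained members that rose and none that fell (against 2.39% of all probes called lower). Of 18 synthesis genes 6 rose (33.3%, against 4.14% of all probes called higher), with a list median of 0.28. Mod1 (now Me1), the malic enzyme that supplies NADPH, read 2765, 2822 and 2102 against 7548, 5959 and 5966 (2.54-fold, log2 difference 1.33, SE 0.19, adjusted p = 0.0114). Acss2, which makes acetyl-CoA from acetate, rose 2.21-fold, Fasn, the fatty acid synthase, 2.29-fold and Srebf1, a transcription factor of lipid synthesis, 1.83-fold. Acss2 was highest on the array labelled knockout replicate 1, at 12655 against 6070 and 7037. A second Acss2 probe was not called, at 0.77 (adjusted p = 0.0643). Of 18 oxidation genes 8 rose (44.4%, against the same 4.14%), with a median of 0.58. They were Pdk4, Acadm, Hadhb, Ehhadh, Slc25a20, Eci1 (listed as Dci), Cpt2 and Acadvl. Their products act in the entry of fatty acids into mitochondria or in beta-oxidation, except Pdk4, a kinase that restrains pyruvate oxidation. Pdk4 read 518.1, 457.6 and 835.0 against 1382, 1772 and 1142 (2.42-fold, adjusted p = 0.0371), and Hadhb rose 1.58-fold (adjusted p = 0.0204). With the epididymal covariate the list medians were 0.21 for synthesis and 0.50 for oxidation. Of 15 cholesterol synthesis genes, Insig1, a sensor that restrains the pathway, was the 1 called (6.67%, against 4.14% of all probes called higher). Insig1 was 1.71-fold higher, while the list median was -0.12. Its 3 other probes, at 0.86, 0.66 and 0.05, were not called.

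Mitochondrial respiratory chain and ATP synthase genes were not called in any of 22 cases, although 21 differences were above 0 and their median was 0.24. Atp5b, a subunit of the ATP synthase, read 22006, 20980 and 26092 against 25800, 28567 and 24973, with overlapping groups. None of 8 brown and beige fat genes was called. Cox8b, a cytochrome oxidase subunit of brown fat and muscle, came closest, at 821.1, 566.5 and 1182 against 2871, 1612 and 1477 (log2 difference 1.16, adjusted p = 0.0541). Its highest value was on the array labelled knockout replicate 1, where the skeletal muscle genes were also highest.

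**Figure D3:**
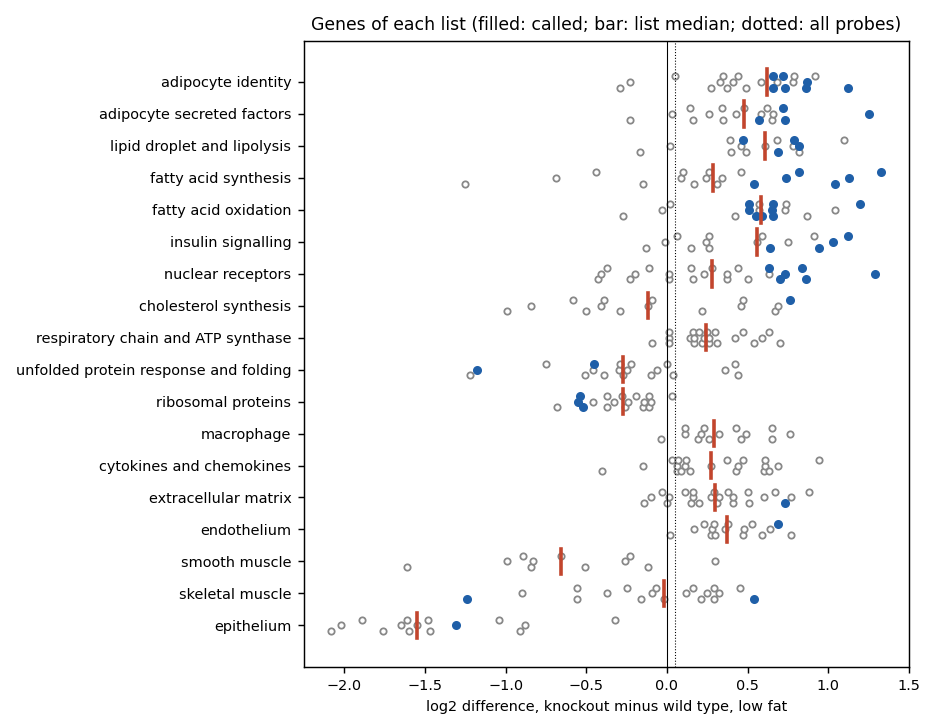
Each point is a gene of the list named at the left, placed by its log2 difference between knockout and wild type on low fat. Filled points are called, red bars are list medians and the dotted line is the median of all probes, 0.05. The fat cell, lipid droplet, fatty acid and insulin lists lie mostly to the right of it, with medians from 0.28 to 0.62, cholesterol synthesis has a median of -0.12, and epithelial genes lie to the left, with a median of -1.55.

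In insulin signalling, 4 of 15 genes rose (26.7%, against 4.14% of all probes) and none fell (against 2.39%), with a median of 0.56. Besides Slc2a4 they were the receptor substrates Irs3 and Irs2 and the kinase subunit Pik3ca. Irs3 read 663.3, 468.8 and 412.6 against 811.8, 1418 and 1109 (2.15-fold), Irs2 rose 2.03-fold and Pik3ca 1.65-fold. Of 23 nuclear receptors 6 rose (26.1%, against 4.14% of all probes) and none fell (against 2.39%). Nr3c1, the glucocorticoid receptor, rose most, from 61.2, 38.7 and 48.6 to 180.7, 222.0 and 174.6, a 3.93-fold rise (log2 difference 1.29, SE 0.16, adjusted p = 0.00688) with no overlap of the groups. Hsd11b1, which regenerates active glucocorticoid in fat, read 4641, 4264 and 5751 against 8368, 10955 and 10881, 2.06-fold higher (adjusted p = 0.0154), and its 2 other probes rose by 0.97 and 0.93. Esr1, an estrogen receptor, rose 1.88-fold and Nr1h3, the oxysterol receptor LXR alpha, 1.68-fold, from 1605, 1096 and 1293 to 1868, 2815 and 2052. A second Nr1h3 probe was not called, at 0.20 (adjusted p = 0.680). Of 16 glucocorticoid-responsive genes, Hsd11b1 and Pdk4 rose (12.5%), Lcn2 fell (6.25%) and 13 were not called, with a list median of -0.03. Over all probes the shares were 4.14% and 2.39%.

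Of 16 measured Siah ligases and reported partners, Nr3c1 and Nr1h3 rose (12.5%, against 4.14% of all probes called higher) and 14 were not called, with a median of 0.19. The hypoxia response list, which holds targets of the pathway in which Siah2 acts on prolyl hydroxylases, had 1 of 20 genes called, a share of 5% and near that of all probes. That gene was Ldha, lactate dehydrogenase A, which read 7745, 7411 and 7470 against 9707, 12169 and 10039 (1.40-fold, adjusted p = 0.0428).

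The largest rises outside the tract lists did not belong to 1 function. Enpep, a membrane peptidase that cleaves angiotensin II, read 144.3, 159.9 and 93.1 against 575.3, 617.4 and 540.8, a 4.47-fold rise (log2 difference 1.80, SE 0.27, adjusted p = 0.0119). The lowest of the arrays labelled knockout lay far above the highest wild type array. Lctl, a klotho-related membrane protein, read 240.1, 172.6 and 98.5 against 758.2, 829.6 and 411.7, 3.99-fold higher. Abcd2, a peroxisomal transporter of fatty acyl-CoA, read 2169, 1286 and 1219 against 4218, 4555 and 5162, 3.08-fold higher (adjusted p = 0.0176), and a second probe rose by 1.37. Orm2, an acute phase protein, read 310.4, 246.6 and 176.0 against 679.1, 1067 and 665.4, 3.30-fold higher (log2 difference 1.53, SE 0.21, adjusted p = 0.00863). The rule that picked these 4 genes took only called genes whose groups did not overlap, so their separation is no separate result.

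Prkar2b, a regulatory subunit of protein kinase A abundant in fat, rose 3.53-fold, from 179.1, 194.6 and 167.9 to 402.1, 793.7 and 806.2. Fgf13, an intracellular member of the fibroblast growth factor family, rose 2.93-fold, with a second probe at 1.37. Wasf2, a regulator of actin assembly, rose 3.42-fold, Sesn2, a stress-induced regulator of nutrient signalling, 4.09-fold and the transcription factor Zbtb7a 3.66-fold. A second Sesn2 probe, which was dim, was not called, at 0.46 (adjusted p = 0.176), and its groups overlapped. The gaps were uneven. Zbtb7a read 405.1, 115.4 and 75.5 in wild type against 561.9, 501.7 and 616.6, so that wild type replicate 1 lay near the higher group. A few genes started near the floor. Ppbp, a platelet chemokine, read 8.8, 21.6 and 5.8 against 140.4, 91.6 and 113.1, at least 4.06-fold higher. The guanylate-binding protein Gbp5 and Kitl, the ligand of the receptor Kit, had log2 differences of 1.49 (adjusted p = 0.0140) and 1.56 (adjusted p = 0.0482). Kitl read 87.4, -8.2 and 4.3 against 157.4, 100.9 and 203.1.

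**Figure D4:**
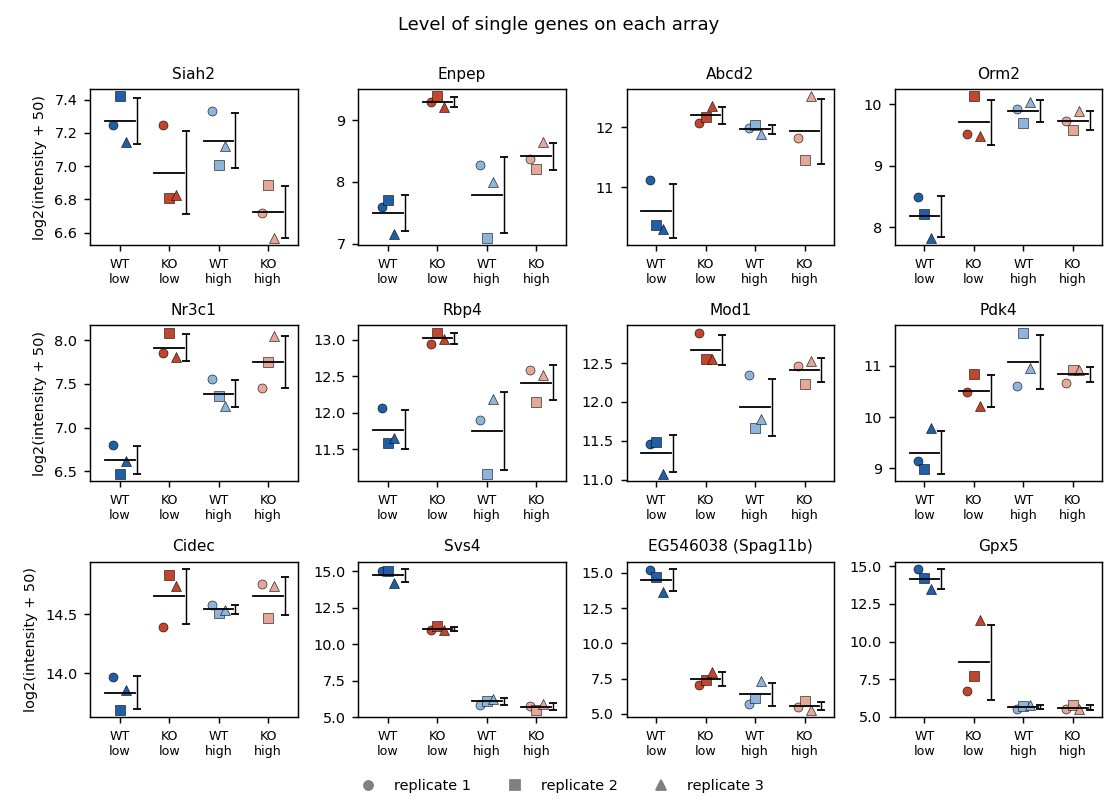
Each panel shows log2(intensity + 50) of 1 gene on each of the 12 arrays (symbols are replicates, lines are means, bars are SD, n = 3 pools; WT, wild type; KO, labelled knockout; low and high, the fat content of the diet). Siah2 overlaps between the low fat groups, while Enpep, Nr3c1 and Rbp4 do not overlap, and Svs4 lies between 1926 and 2371 in intensity on the low fat arrays labelled knockout.

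The largest falls outside the tract lists, locus names left aside, were of genes that were much dimmer on high fat than in wild type fat on low fat. Slc38a5, an amino acid transporter, read 34974, 17024 and 12318 against 344.7, 510.9 and 3387, 23.1-fold lower (adjusted p = 0.0133), with means of 92.9 and 195.6 in the high fat groups. Defb25, a defensin, read 7645, 11386 and 283.2 against 38.3, 47.7 and 90.2, 53.1-fold lower. Serpinf2, the gene of alpha2-antiplasmin, read 745.9, 386.4 and 259.2 against 8.1, 2.5 and 62.3 (log2 difference -2.76, SE 0.34, adjusted p = 0.00688). Lcn2, a lipocalin that binds bacterial siderophores and that is made by fat cells, neutrophils and epithelia, read 14084, 12224 and 4210 against 1026, 621.9 and 1810, 8.56-fold lower. As with the seminal vesicle genes, these were lowest among the wild type arrays on replicate 3. Ly6g5b, Ly6g5c, Ovch2, Tspan8, Krt23, Dnase2b, Atp12a and Ddit4l completed the 12 largest, with log2 differences from -4.55 to -2.40. Ly6g5b and Krt23 were likewise detected on 3 arrays and exceeded the floor only in wild type fat on low fat, so they too could only fall. Dnase2b, detected on 4 arrays, also exceeded the floor only in wild type fat on low fat. Of the 350 probes called lower outside the tract lists, 72 (20.6%) lay below the floor on every wild type high fat array, against 8.64% of all probes and 1.69% of those called higher. Whether these transcripts came from fat or from attached tissue was not tested.

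Smaller falls included genes that most cells express. Among 18 ribosomal protein genes 3 fell (16.7%, against 2.39% of all probes called lower). Rplp0 and Rpl19 were among them, with log2 differences of -0.55 and -0.52. Of the 18 differences, 17 were negative (median -0.27). A second Rplp0 probe gave -0.04 and was not called. Among 19 folding and unfolded protein response genes 2 fell (10.5%), the chaperone genes Calr and Dnajc3. Calr read 931.5, 862.5 and 514.2 against 350.0, 241.4 and 319.2, 2.48-fold lower (adjusted p = 0.0441). Cd9, a tetraspanin of macrophages and many other cells, read 1917, 1899 and 1285 against 739.8, 759.3 and 652.0, 2.34-fold lower (adjusted p = 0.0140). Gata2, a transcription factor of blood and preadipocytes, fell 2.42-fold and Dpp4, a peptidase of fibroblasts and epithelia, 2.07-fold. Their means were 3624 and 1706 in wild type on low fat, and 676.0 and 703.9 in wild type on high fat.

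Over 6 immune lists 3 of 84 measured genes were called (3.57%, against 6.52% of all probes). None of 14 macrophage genes was called, with a median of 0.29, and none of 21 cytokine and chemokine genes, 14 antigen presentation genes or 9 lymphocyte genes. Lgals3, a lectin abundant in macrophages, read 6964, 8342 and 8449 against 9350, 14886 and 9727 (log2 difference 0.49, adjusted p = 0.105), and Laptm5, a lysosomal protein of leukocytes, 4365, 6275 and 5111 against 5474, 8547 and 5182. Both were highest on the array labelled knockout replicate 2. Of the 3 called genes 2 rose and 1 fell. The risers were Fabp5, a fatty acid binding protein of macrophages, fat and epithelia, at 322.9, 225.6 and 200.7 against 595.3, 893.5 and 636.1 (2.85-fold, adjusted p = 0.0135), and Mgl1 (now Clec10a), a lectin of resident macrophages, 1.83-fold. The 1 that fell was Cd9. Of 17 interferon-induced genes Gbp2 was called, 1.47-fold higher, a share of 5.88% against 4.14% of all probes called higher. Its 2 other probes were not called, at 0.17 and 0.11. None of 16 cell cycle, 13 clock, 17 immediate early or 23 proteasome genes was called by its brightest probe. A second probe of the immediate early gene Klf6 was called, at 0.64 (adjusted p = 0.0371).

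In the matrix and endothelial lists the shares called, 4.17% and 6.25%, were near or below the 6.52% of all probes. Sparc, a collagen-binding matrix protein, was the 1 of 24 matrix genes called, from 12814, 9636 and 9782 to 13722, 21637 and 18743 (1.66-fold), while its second probe, at 0.49, was not called (adjusted p = 0.346). Cd93, a receptor of endothelial cells, was the 1 of 16 endothelial genes called, 1.64-fold higher. Of 9 mesothelial genes, the keratin gene Krt19 fell 4.12-fold and the claudin gene Cldn15 rose 1.76-fold (22.2% called, against 6.52% of all probes). The other Cldn15 probes, at 0.67 and 0.55, were not called. Of 19 skeletal muscle genes, Tnnt1 fell 3.64-fold and Myl1 rose 1.46-fold (10.5% called). Krt19 and Tnnt1 had means of 352.9 and 207.7 in wild type on low fat and 17.4 and 44.7 in wild type on high fat. Tnnt1 read 224.2, 164.7 and 234.2 against 90.3, 35.6 and 55.6, with no overlap.

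On high fat the same genotype comparison called 12 probes (0.0761%), none of them higher, with 1762 at an unadjusted p under 0.05, against 4223 on low fat. The probes called higher on low fat had a median high fat difference of 0.12, and 73.3% of these differences were above 0, against 46.6% of all probes. Those called lower had a median of -0.03. Tested directly, the genotype difference on low fat differed from that on high fat for 13 probes (0.0825%). Of these, 9 were also called on low fat, and 1 of the 9 was a probe called higher. Svs4, Svs5, Svs1, Svs3b, OTTMUSG00000015859 and both probes of EG546038 made up most of them. Their mean levels on high fat were near or below the floor in both genotypes. For Enpep, whose high fat means were 184.1 and 293.6, the test of the difference between diets gave an adjusted p of 0.165, and for Abcd2, at 3946 and 4033, 0.116.

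**Figure D5:**
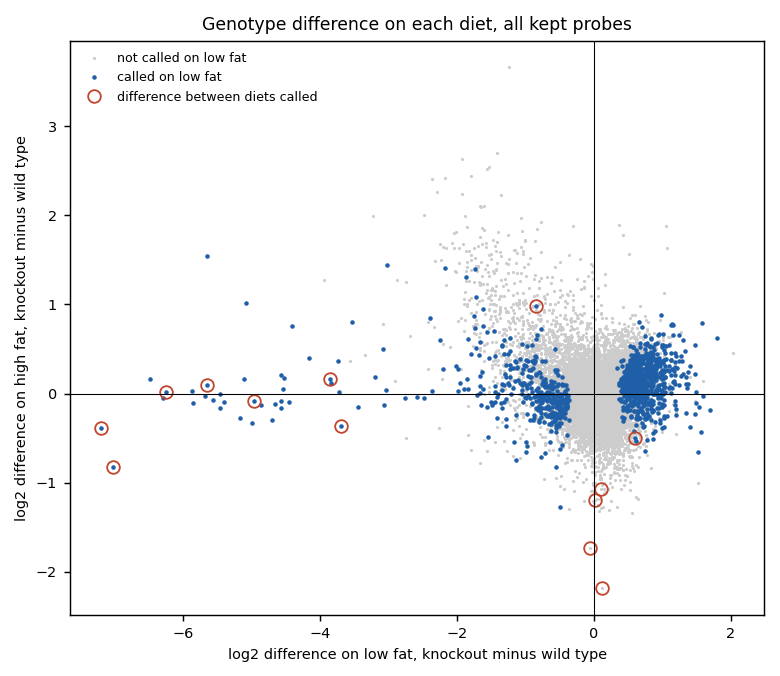
Each point is a probe, placed by its log2 difference between knockout and wild type on low fat (horizontal) and on high fat (vertical). Blue points are the 1028 called on low fat, and red circles mark the 13 whose difference between diets is called. The strongest falls on low fat, down to -7.20, lie at high fat differences near 0.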

How the data were processed

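RNA pools of epididymal fat were hybridised to an Illumina mouse bead array. The authors deposited normalized intensities per probe and sample, made with GenomeStudio per the submitters' processing notes, with settings not given in the sources used here. Of the deposited values, 22.9% were below 0 (lowest -27.5) and the column medians were 33.3 to 33.6, so background had been subtracted and the arrays brought to a common distribution. Further tables deposited by the authors held raw intensities (module GSGX 1.9.0, per the file headers) and a detection p-value for each probe. Their array codes are tied to no sample, so they gave only gene names and detection counts, after a join of all 25697 probes on raw signals equal within 0.05. Another 20 signal columns deposited with the gene names belonged to no sample.

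Probes detected (p under 0.05) on at least 3 of 12 arrays were kept. Limma 3.58.1 (R 4.3.3) was fitted to log2(intensity + 50) with 4 group means on 12 arrays (8 residual degrees of freedom), and all adjusted p-values are from it. The step was tested on simulated data. Symbols are those of the deposited table, and current symbols came from Entrez through RefSeq (GRCm38.p6). Lists were matched first by deposited symbol and then, after a first look at results, also by current symbol. The members and the 41 gene lists were chosen with earlier results of these data known. Genes were named by rule: the 12 largest rises and falls outside the tract and muscle lists, leaving out locus names, the 8 largest tract falls, up to 4 called or 2 uncalled members per list, and the genes called with the epididymal covariate or by the difference between diets. The 12 largest rises and falls were taken only from called genes whose low fat groups did not overlap. Other list members are named after their values were seen, and some called genes are not reported here. Replicate numbers are pool numbers, and deviations of same-numbered low fat arrays correlated at -0.346, -0.059 and 0.037. The sources used here tie no slide to a sample, so slide was not tested as a batch, and 3 arrays per group limit the precision.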

Additional observations from a re-analysis of the deposited data

Results flagged for a closer look

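The genotype difference on low fat differed from that on high fat, by the limma contrast of the 2 differences, for 13 probes. The values below are the low fat difference minus the high fat difference on the log2 scale. It was negative for 8 of them. The probe of OTTMUSG00000015859 gave -6.28, the 2 probes of EG546038 gave -6.81 and -6.20, Svs3b gave -5.74, Svs1 -4.89, Svs5 -4.02 and Svs4 -3.32, all from falls on low fat against high fat levels near the floor. Wfdc1, a secreted protein of the whey acidic protein family, gave -1.83, with means of 485.7 in wild type and 251.1 in knockout on low fat and 98.8 and 243.9 on high fat.

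It was positive for 5. EG240916 (now Vsig8) gave 2.31, Gdf3, a growth and differentiation factor, 1.68, and Kcnn4, a potassium channel, 1.22. These genes were below or near the floor in both genotypes on low fat and were lower in knockout on high fat, where Gdf3 went from 170.4 to 15.0. Treml1, a receptor of platelets, gave 1.11, with means of 6.7 and 36.2 on low fat and 78.8 and 40.5 on high fat.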

How the results depend on the processing

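Over 25 alternatives, 12 of which left out an array, the 86 called genes named by rule kept their direction in all of their 2124 results, while 14 of the 31 uncalled named genes changed sign in 43 of 773 results. Of these 2897 results together, 2070 stayed on the same side of the threshold, 814 were no longer called and 13 were newly called. The 1028 probes called on low fat became 536 with an offset of 16 (values floored at 1 after adding it), 565 without the detection filter, 7 on the 6 low fat arrays alone, 148 with a replicate block, 7 with the epididymal covariate, 16 with epididymal and muscle covariates and 4156 with array quality weights. The range on leaving out an array was 31 to 1775. The 86 list genes called became 44, 53, 4, 24, 6, 6 and 216 under the same settings and in the same order, with a range of 14 to 129 on leaving out an array. The 13 probes whose genotype difference depended on diet became 0 among probes detected on all 12 arrays (limma; 2995 of the 15765 had an unadjusted p under 0.05 in the original fit), 7 with a replicate block, 4 with the epididymal covariate, 23 with the muscle covariate, 5 with both and 87 with array weights, and ranged from 6 to 110 on leaving out an array. The Siah2 difference was -0.44 (adjusted p = 0.0229) with array weights and -0.45 to -0.24 on leaving out an array. The array weights came from the gene-by-gene method, taken after the default did not converge. Seminal vesicle genes kept 8 to 10 of 10 called on leaving out any array, and 4 with the epididymal covariate, 2 on the 6 low fat arrays and 0 among probes detected on all arrays, where few are tested. The causes of these changes were not tested.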
